A study of Drosophila melanogaster with 10 samples.

Results

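The 34 genes described here drive the mechanical part of cell division: they switch a cell into mitosis, condense its chromosomes, attach them to the spindle, separate the sisters and divide the cell. They were chosen by name and function, but with earlier results of these data known. Their counts beside those of all tested genes are therefore a description. All 34 were found among the 14292 genes obtained by summing the deposited transcript values. The libraries came from adult male Drosophila melanogaster midguts, dissected 7 days after eclosion from flies kept at 25 °C on yeast alone. Every animal carried Dredd D44, a mutation on the X chromosome in the caspase that relays signals of the IMD immune pathway. Controls (Dredd D44/Y with mex-GAL4/+) are called mex>+. The other group carried mex-GAL4/UAS-PGRP-LE on the same Dredd D44/Y background and is called mex>PGRP-LE. In it the mex driver switches on the peptidoglycan receptor PGRP-LE in enterocytes, the absorptive cells. Each group had 5 libraries described as biological replicates, with RNA taken from 20 midguts (whether per library or in all is not stated), and controls shared the mutation and the driver but not the transgene.

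In the adult fly midgut, intestinal stem cells are the main dividing cells. Their daughters, the enteroblasts, become enterocytes, which enlarge by endocycles, rounds of DNA replication without mitosis. Mitotic cyclins, the Cdk1-activating phosphatase String and the segregation machinery act in mitosis rather than in the endocycle, and in many tissues their transcripts rise and fall with the number of dividing cells. The midgut also holds enteroendocrine cells and visceral muscle, which mostly do not divide.

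Values are in TPM (transcript abundance per length, scaled so that each library has the same total). The number of reads behind a TPM value is lost, and with it the counting error of low genes. Changes are differences in log2(TPM + 1), mex>PGRP-LE minus mex>+, with a standard error (SE) from limma, a linear model fitted to all 10529 genes with a mean of at least 0.1 TPM. "Rose" and "fell" mark genes whose Benjamini-Hochberg adjusted p from that fit was under 0.05. The added constant shrinks the change of low genes, so the ratio of mean TPM is given beside it. PGRP-LE itself ranged from 35.9 to 41.8 TPM without the transgene and from 4257 to 5030 TPM with it, as the labels state. The genotypes separated on the first principal component (67.9% of variance), and replicate 2 of both groups stood apart on the second (10.1%). Spike-in sequences took between 1.14% and 1.53% of TPM.

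Of the 34 genes, 31 rose, 0 fell and 3 did not pass the test (limma; Bub1, cal1 and pim, all with a log2 change above 0). Among all tested genes 36.2% rose and 20.3% fell. The median log2 change was 0.67 for the 34 genes and 0.07 for all tested genes. Median-of-ratios rescaling, which moves the split of all genes from 3810 higher and 2133 lower to 3038 and 2913 (28.9% and 27.7%), left 30 of the 34 higher and 0 lower. Leaving out replicate 2 of both groups gave 31 and 0. The 5 mex>PGRP-LE libraries lay above all 5 controls for 31 genes, where 28.4% of all tested genes did so. These were the same 31 that rose.

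**Figure D1:**
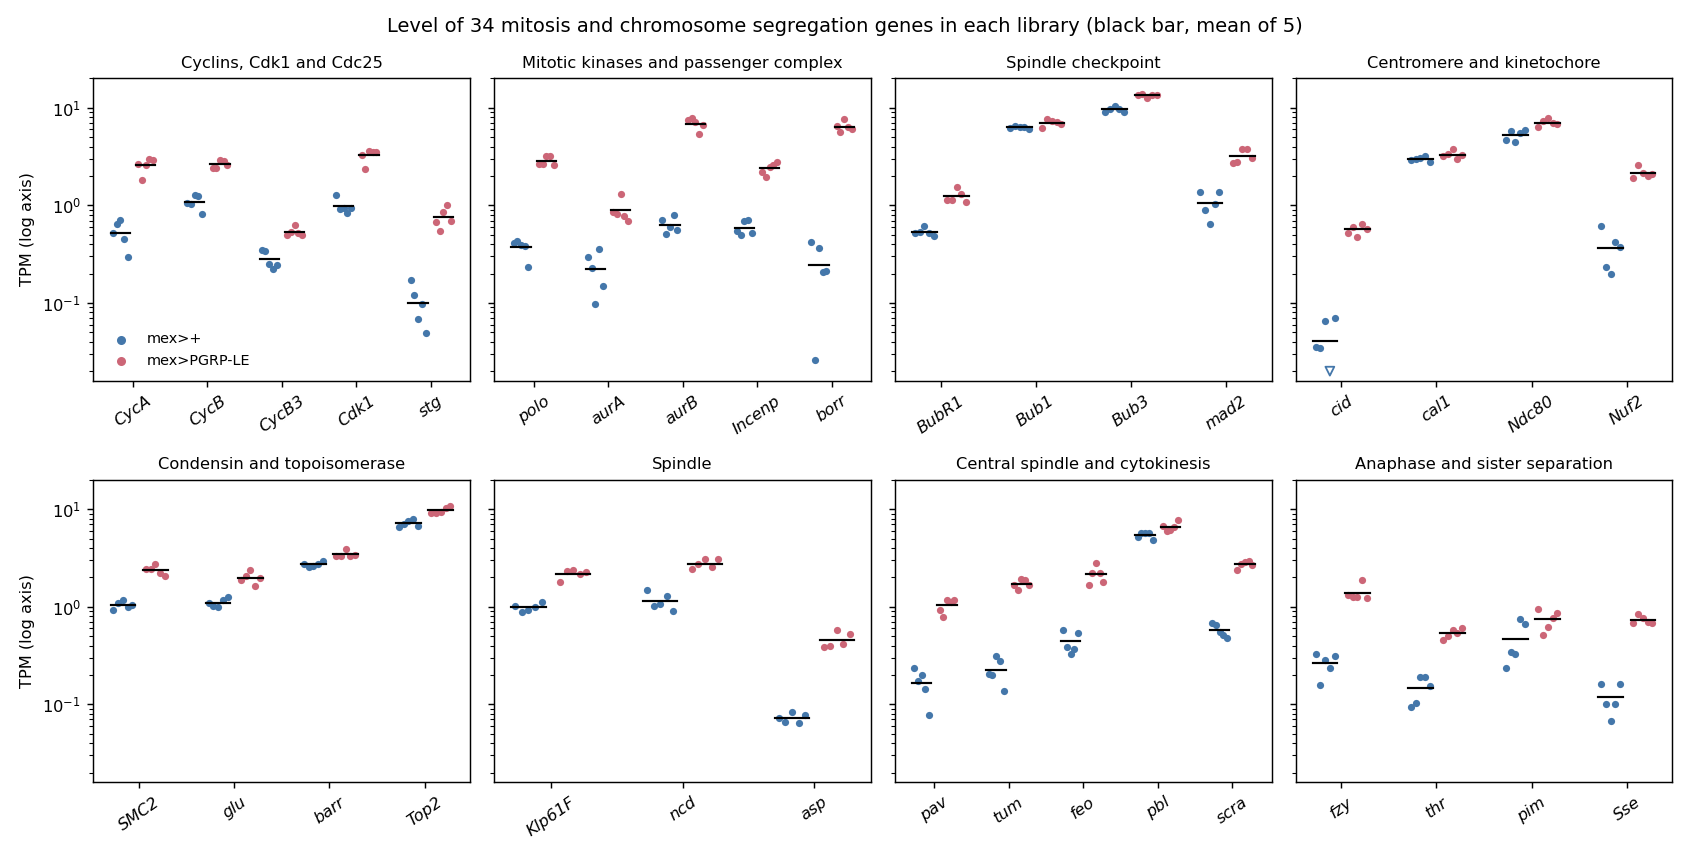
TPM of each of the 34 genes (log axis) in the 5 mex>+ libraries (blue) and the 5 mex>PGRP-LE libraries (red), by function; black bars are means of 5. The groups are separate for all but Bub1, cal1 and pim; the open triangle marks the control library in which cid is listed at 0.

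The ratio of mean TPM ranged from 1.11 to 26.0, with a median of 3.49. A ratio of at least 2 was seen for 24 of the 34 genes and for 7.89% of tested genes. A ratio of at least 3 was seen for 19 of the 34 genes and for 4.36% of tested genes. Low genes reach such ratios more readily: among tested genes with a mean under 2 TPM the share was 11.7%, and 15 of the 23 genes of the set under that level had one. Of those 23 genes 22 rose, beside 23.6% of tested genes at such levels. Of the 11 at 2 TPM or more 9 rose, beside 40.0%. In controls most of the machinery was barely detected, with 20 of 34 genes under 1 TPM in every control library and 7 still under 1 TPM in every mex>PGRP-LE library. A filter of at least 1 TPM in 5 libraries would have kept 25 genes, 11 of which were under 1 TPM in every control library and so would have passed through mex>PGRP-LE alone. The mean filter used here kept all 34. However, cid and asp were under 0.1 TPM in every control library (at most 0.0705 and 0.0842 TPM). They passed that filter through mex>PGRP-LE alone, and both are counted among the genes that rose.

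The mitotic cyclins, the kinase Cdk1 and its activating phosphatase String rose together, all 5 of 5. CycA, the mitotic cyclin that is essential in fly cell division (FBgn0000404, 3L, 11826719 to 11833578, minus strand), stood at 0.521, 0.643, 0.712, 0.450 and 0.299 TPM in control replicates 1 to 5. In mex>PGRP-LE replicates 1 to 5 it stood at 2.65, 1.81, 2.60, 3.02 and 2.93 TPM. The lowest mex>PGRP-LE library, replicate 2, was still above every control. The log2 change was 1.24 ± 0.11 (SE, n = 5 per group; limma adjusted p = 1.95e-06) and the ratio of means 4.95. Cdk1, the catalytic partner of the mitotic cyclins (FBgn0004106, 2L, 10384739 to 10386262, minus strand), read 1.28, 0.920, 0.935, 0.842 and 0.947 TPM in controls. With the transgene it read 3.30, 2.33, 3.62, 3.51 and 3.55 TPM. Replicate 1 was high among the controls and replicate 2 low among the mex>PGRP-LE libraries, without overlap, and the log2 change was 1.10 ± 0.10 (limma adjusted p = 2.38e-06).

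CycB, the cyclin that drives mitotic entry together with CycA, went from 1.09 ± 0.181 to 2.63 ± 0.233 TPM (SD, n = 5), a ratio of 2.42. String (stg), the Cdc25-type phosphatase that removes inhibitory phosphate from Cdk1 and is commonly limiting for mitotic entry, went from 0.101 ± 0.0478 to 0.753 ± 0.176 TPM, a ratio of 7.46. CycB3, which acts in anaphase, moved least of the 5, from 0.282 ± 0.0589 to 0.538 ± 0.0538 TPM (log2 change 0.26 ± 0.05; limma adjusted p = 9.80e-04). The ratio of CycB to CycA TPM ran from 1.63 to 2.75 in controls and from 0.894 to 1.32 in mex>PGRP-LE, so CycB was the more abundant transcript in every control library and the pair was near parity with the transgene. CycA relative to Cdk1 overlapped between groups (0.316 to 0.762 and 0.717 to 0.861).

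The mitotic kinases and the chromosomal passenger complex held the largest changes of the 34. This complex corrects faulty chromosome attachments and later marks the site of division; Aurora B is its kinase, Incenp its scaffold and Borealin-related (borr) a targeting subunit. The borr gene (FBgn0032105, 2L, 9251472 to 9253118, minus strand) stood at 0.425, 0.0259, 0.365, 0.207 and 0.213 TPM in controls. In mex>PGRP-LE it stood at 6.43, 5.69, 7.61, 6.30 and 6.06 TPM. Replicate 2 was very low among the controls, and the highest control lay far below every mex>PGRP-LE library. The log2 change was 2.58 ± 0.10 (limma adjusted p = 3.92e-09) and the ratio of means 26.0. Of its 2 annotated transcripts, borr-RB carried 86.0% of the gene's mean TPM with the transgene.

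aurB (FBgn0024227, 2L, 10856797 to 10858094, minus strand) read 0.706, 0.514, 0.597, 0.791 and 0.559 TPM in controls and 7.44, 7.83, 7.08, 5.39 and 6.70 TPM with the transgene. The groups were far apart, with replicate 4 the lowest of mex>PGRP-LE, and the log2 change was 2.27 ± 0.09 (limma adjusted p = 5.70e-09; ratio of means 10.9). Incenp rose less, from 0.593 ± 0.101 to 2.39 ± 0.322 TPM (SD, n = 5), a ratio of 4.03. The ratios of means therefore differed between members of the complex. Differences between the changes of partner genes, here and in the other pairs, were not tested. How often the ratios of any pair of genes separate the groups was not computed. The ratio of borr to Incenp TPM was between 0.0526 and 0.774 in controls and between 2.20 and 3.09 in mex>PGRP-LE. The ratio of aurB to Incenp was between 0.867 and 1.29 in controls and between 2.08 and 4.02 in mex>PGRP-LE. Neither pair of ranges overlapped.

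polo, the kinase that acts from centrosome maturation to cytokinesis, stood higher in every mex>PGRP-LE library than in any control, with a ratio of means of 7.72 (limma adjusted p = 1.98e-08). aurA, the Aurora kinase of centrosomes and spindle poles, went from 0.225 ± 0.106 to 0.892 ± 0.245 TPM (SD, n = 5; log2 change 0.62 ± 0.09). Its replicate 3 was the highest of mex>PGRP-LE, at 1.32 TPM. aurB was the more abundant Aurora transcript in all 10 libraries, with an aurB to aurA ratio of 2.22 to 6.12 in controls and 5.38 to 9.66 with the transgene, ranges that overlapped.

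**Figure D2:**
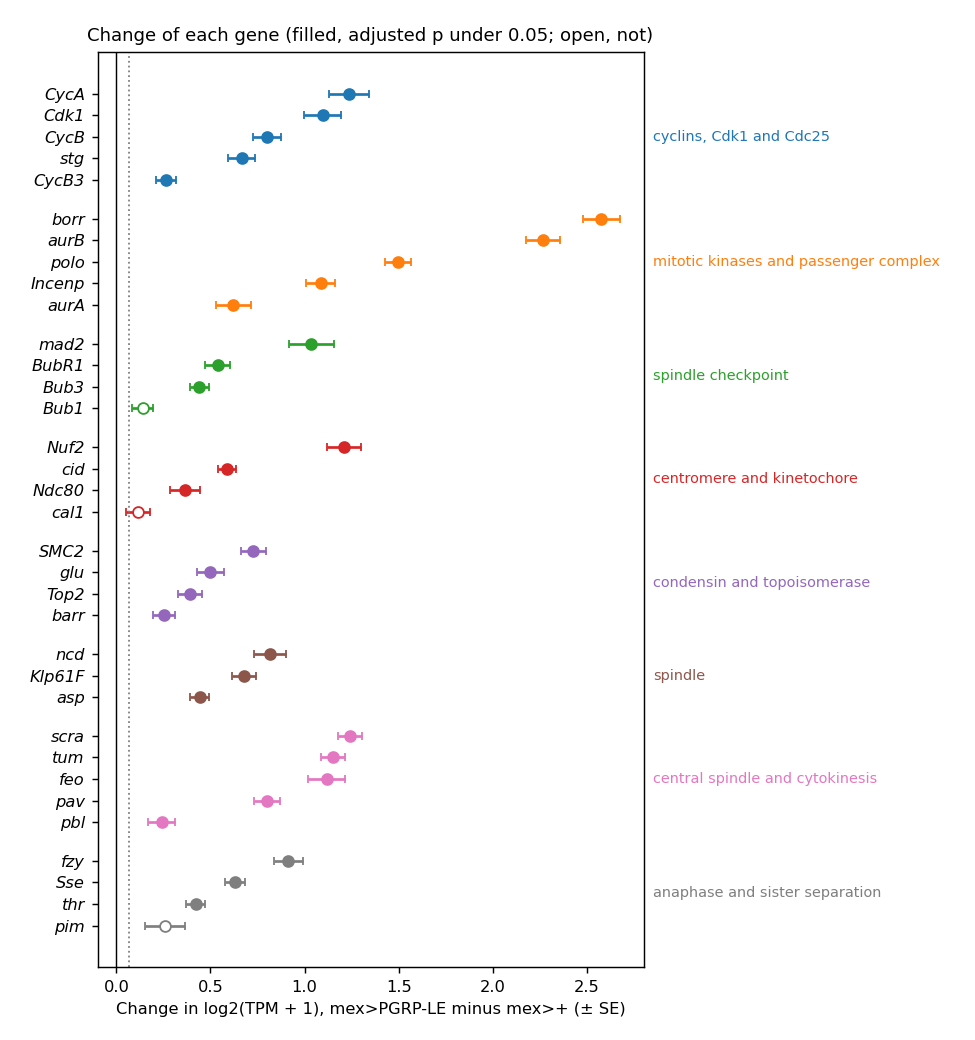
Change in log2(TPM + 1) of each gene, mex>PGRP-LE minus mex>+, with its SE from limma, by function; filled points passed an adjusted p of 0.05, open points did not, and the dotted line is the median of all tested genes (0.07). All 34 points lie above 0, from 0.12 for cal1 to 2.58 for borr.

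The spindle checkpoint holds back anaphase until every chromosome is attached. Of its 4 genes here, 3 rose. mad2, which binds and inhibits the activator of the anaphase-promoting complex (FBgn0035640, 3L, 5812135 to 5813093, minus strand), read 1.39, 0.894, 0.639, 1.03 and 1.38 TPM in controls. With the transgene it read 2.74, 2.75, 3.81, 3.75 and 3.05 TPM, again with no overlap, and the log2 change was 1.04 ± 0.12 (limma adjusted p = 1.71e-05). BubR1, which joins Mad2 in that inhibition, read 0.526, 0.539, 0.614, 0.525 and 0.488 TPM in controls and 1.14, 1.13, 1.54, 1.30 and 1.08 TPM in mex>PGRP-LE. All 5 controls were close together and below every mex>PGRP-LE library, with a log2 change of 0.54 ± 0.06 (limma adjusted p = 2.35e-05).

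Bub3, a WD-repeat partner of the Bub kinases and the most abundant of the 34 transcripts, rose from 9.63 ± 0.579 to 13.4 ± 0.451 TPM (SD, n = 5; log2 change 0.44 ± 0.05). Bub1, a kinetochore kinase, stood at 6.23, 6.44, 6.36, 6.37 and 6.05 TPM in controls and at 6.22, 7.73, 7.26, 7.21 and 6.81 TPM in mex>PGRP-LE. Replicate 1 of mex>PGRP-LE fell among the controls and the other 4 lay above them. The log2 change of 0.14 ± 0.06 did not pass the test (limma adjusted p = 0.0534). Without mex>PGRP-LE replicate 1 it passed (limma adjusted p = 0.0133), within a range of 0.0133 to 0.419 over the alternatives. Bub1 also passed under an alternative that kept every library. BubR1 relative to Bub1 went from between 0.0806 and 0.0965 in controls to between 0.146 and 0.212 with the transgene.

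At the centromere and kinetochore 3 of 4 genes rose. cid encodes the centromeric histone, the fly CENP-A, which marks where a kinetochore forms. It was listed at 0.0353, 0.0343, 0.0651, 0 and 0.0705 TPM in controls and at 0.525, 0.601, 0.479, 0.650 and 0.576 TPM in mex>PGRP-LE. Controls were at the edge of detection and every mex>PGRP-LE library was higher, with a log2 change of 0.59 ± 0.05 (limma adjusted p = 1.26e-06). By contrast cal1, which loads the protein product of cid onto centromeres (FBgn0038478, 3R, 17088280 to 17091938, plus strand), did not pass. It read 2.93, 2.99, 3.03, 3.20 and 2.76 TPM in controls and 3.20, 3.34, 3.77, 2.95 and 3.31 TPM in mex>PGRP-LE. The groups overlapped, with mex>PGRP-LE replicate 4 among the controls (log2 change 0.12 ± 0.06; limma adjusted p = 0.136). cal1 overlaps cher on the other strand over 406 bases, and cher fell by 0.74 on the log2 scale.

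Nuf2 and Ndc80 are partners in the kinetochore complex that grips microtubules. Nuf2 (FBgn0031886, 2L, 7064431 to 7065837, minus strand) read 0.612, 0.233, 0.196, 0.418 and 0.372 TPM in controls and 1.89, 2.61, 2.13, 2.02 and 2.08 TPM in mex>PGRP-LE. Controls varied among themselves but stayed below every mex>PGRP-LE library (log2 change 1.21 ± 0.09; limma adjusted p = 6.03e-07; ratio of means 5.86). Ndc80 rose from 5.27 ± 0.669 to 7.06 ± 0.537 TPM (SD, n = 5), a ratio of 1.34. The Nuf2 to Ndc80 ratio accordingly moved from between 0.0398 and 0.131 in controls to between 0.272 and 0.358. Nuf2 overlaps Sem1 on the other strand over 37 bases, and Sem1 rose by 0.81 on the log2 scale.

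All 4 genes of chromosome condensation rose, with small ratios. SMC2 and gluon (glu, the fly SMC4) form the hinge of condensin, barren (barr) is a subunit that closes the ring, and Top2 untangles sister DNA. SMC2 read 0.927, 1.10, 1.17, 1.01 and 1.03 TPM in controls and 2.47, 2.46, 2.76, 2.21 and 2.08 TPM in mex>PGRP-LE, without overlap (log2 change 0.73 ± 0.07; limma adjusted p = 3.15e-06). glu read 1.08, 1.01, 0.993, 1.17 and 1.26 TPM in controls and 1.88, 2.05, 2.37, 1.64 and 1.96 TPM in mex>PGRP-LE, also without overlap (log2 change 0.50 ± 0.07; limma adjusted p = 1.14e-04). The larger of the pair's changes was that of SMC2, with a ratio of 2.29 beside 1.79 for glu. barr went from 2.72 ± 0.148 to 3.44 ± 0.257 TPM and Top2 from 7.19 ± 0.535 to 9.73 ± 0.734 TPM (SD, n = 5). The barr call was lost when TPM were rescaled to the spike-ins (limma adjusted p = 0.0698, range over the alternatives 0.00135 to 0.0698). Relative to glu, barr went from between 2.34 and 2.62 to between 1.63 and 2.00, while the ranges of SMC2 relative to glu overlapped.

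**Figure D3:**
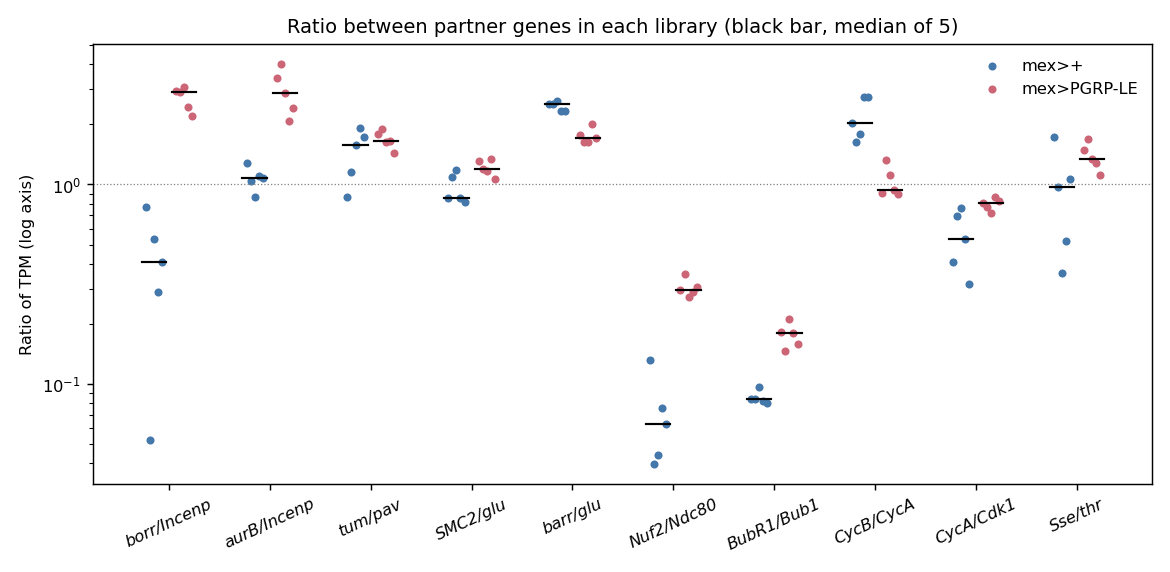
Ratio of TPM between partner genes in each library (log axis), mex>+ in blue and mex>PGRP-LE in red, with black bars for medians of 5. The ranges are separate for borr/Incenp, aurB/Incenp, barr/glu, Nuf2/Ndc80, BubR1/Bub1 and CycB/CycA, and overlap for tum/pav, SMC2/glu, CycA/Cdk1 and Sse/thr.

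Spindle genes rose, 3 of 3. ncd, a minus-end-directed kinesin that focuses poles, read 1.48, 1.01, 1.07, 1.28 and 0.906 TPM in controls and 2.45, 2.74, 3.08, 2.54 and 3.05 TPM in mex>PGRP-LE. Klp61F, the motor that slides antiparallel microtubules apart and keeps the spindle bipolar, read 1.02, 0.886, 0.923, 1.00 and 1.11 TPM in controls and 1.81, 2.31, 2.37, 2.18 and 2.26 TPM in mex>PGRP-LE. Neither overlapped, with log2 changes of 0.81 ± 0.08 and 0.68 ± 0.07 (limma adjusted p = 7.81e-06 and 4.05e-06). asp, the fly relative of ASPM at spindle poles, went from 0.0728 ± 0.00811 to 0.461 ± 0.0878 TPM (SD, n = 5). Its ratio of means, 6.33, was the largest of the 3, and its mean over the 10 libraries was the lowest of all 34 genes.

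Genes of the central spindle and of cytokinesis also rose, 5 of 5. scraps (scra), the fly anillin of the contractile ring (FBgn0261385, 2R, 7590119 to 7595242, plus strand), read 0.679, 0.648, 0.557, 0.516 and 0.479 TPM in controls. In mex>PGRP-LE it read 2.38, 2.73, 2.90, 2.91 and 2.69 TPM, far above the controls (log2 change 1.24 ± 0.06; limma adjusted p = 3.68e-08). tumbleweed (tum), the GTPase-activating subunit of centralspindlin, read 0.204, 0.199, 0.314, 0.275 and 0.136 TPM in controls and 1.68, 1.48, 1.94, 1.86 and 1.68 TPM in mex>PGRP-LE. Its groups were equally well apart (log2 change 1.15 ± 0.06; limma adjusted p = 7.27e-08).

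pavarotti (pav), the kinesin that pairs with tum in centralspindlin, went from 0.165 ± 0.0591 to 1.04 ± 0.173 TPM (SD, n = 5), and the ratio of tum to pav overlapped between groups (0.870 to 1.93 and 1.45 to 1.89). fascetto (feo), which bundles central spindle microtubules, went from 0.441 ± 0.112 to 2.14 ± 0.454 TPM. pebble (pbl), the exchange factor that activates Rho1 at the cleavage furrow, moved least of these, from 5.44 ± 0.412 to 6.62 ± 0.657 TPM (log2 change 0.24 ± 0.07; limma adjusted p = 0.0118). The pbl call was lost under median-of-ratios rescaling (limma adjusted p = 0.0691), spike-in rescaling (0.0698) and a replicate block (0.0530), within a range of 0.00831 to 0.0698 over the alternatives.

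Sister separation depends on fizzy (fzy), the Cdc20 activator of the anaphase-promoting complex, on the separase made of Sse and thr, and on pimples (pim), the securin that holds separase in check. Of these 4 genes, 3 rose. fzy (FBgn0001086, 2L, 16310956 to 16313097, plus strand) read 0.326, 0.158, 0.285, 0.238 and 0.310 TPM in controls and 1.32, 1.25, 1.27, 1.87 and 1.24 TPM in mex>PGRP-LE. The groups were apart and replicate 4 was high among the mex>PGRP-LE libraries (log2 change 0.91 ± 0.08; limma adjusted p = 1.58e-06). Sse read 0.163, 0.101, 0.0683, 0.0998 and 0.163 TPM in controls and 0.677, 0.852, 0.770, 0.690 and 0.677 TPM in mex>PGRP-LE. It too was separate in all libraries (log2 change 0.63 ± 0.05; limma adjusted p = 1.16e-06), and thr went from 0.146 ± 0.0458 to 0.536 ± 0.0599 TPM (SD, n = 5).

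The securin gene did not pass the test. pim (FBgn0003087, 2L, 10362989 to 10364092, plus strand) read 0.235, 0.342, 0.325, 0.744 and 0.664 TPM in controls and 0.941, 0.511, 0.626, 0.760 and 0.867 TPM in mex>PGRP-LE. Controls 4 and 5 lay within the range of mex>PGRP-LE and the other 3 controls lay below it. The log2 change was 0.26 ± 0.11 (limma adjusted p = 0.0589). It passed without control replicate 4 (limma adjusted p = 0.0189), without control replicate 5 (0.0357) and without mex>PGRP-LE replicate 2 (0.0358). It also passed under an alternative that kept every library, and the range over the alternatives was 0.0189 to 0.184. Sse relative to pim was between 0.134 and 0.692 in controls and between 0.719 and 1.67 with the transgene. The difference between the changes of pim and Sse was not tested.

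Of the 11 genes with a mean of at least 2 TPM over the 10 libraries, borr, aurB, Cdk1 and mad2 had ratios of 26.0, 10.9, 3.31 and 3.02. The other 7 genes at that level (Bub1, Bub3, cal1, Ndc80, barr, Top2 and pbl) had ratios of 1.11 to 1.39. These 7 were grouped by their ratio after the values were seen, so their smaller share of the sum with the transgene follows from the choice and is given as a description. They held between 70.9% and 76.1% of the summed TPM of the 34 genes in controls and between 44.5% and 48.4% in mex>PGRP-LE. The sum over all 34 ran from 51.6 to 55.6 TPM in controls and from 103 to 114 TPM in mex>PGRP-LE. Over the other 27 genes it ran from 12.6 to 15.4 TPM and from 53.9 to 63.5 TPM.

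**Figure D4:**
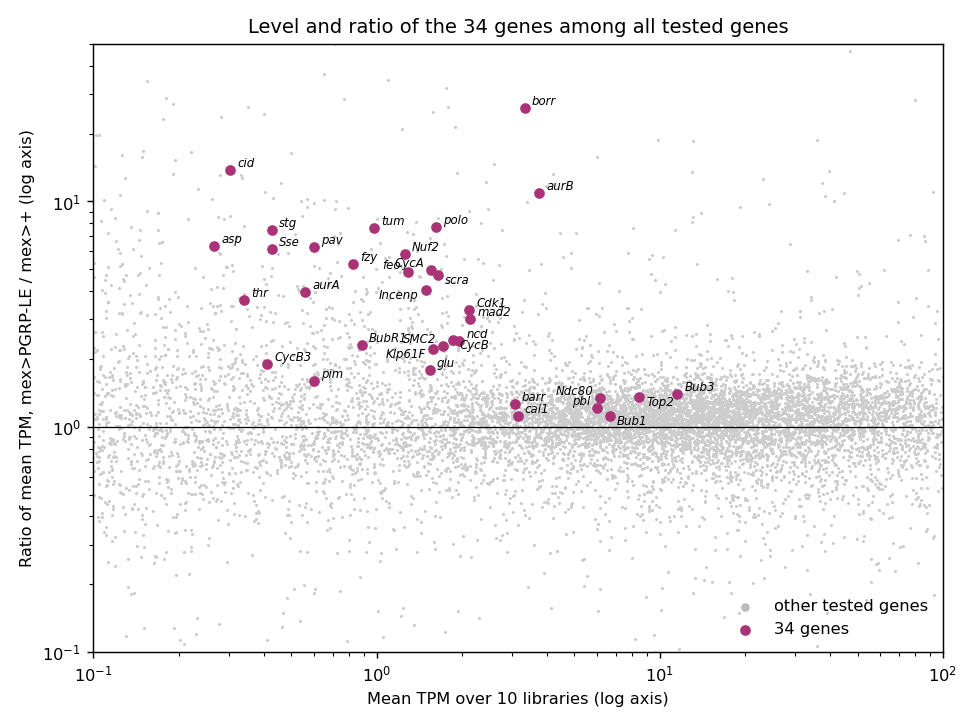
Mean TPM over the 10 libraries against the ratio of mean TPM, mex>PGRP-LE to mex>+ (both log axes), for the 34 genes (purple, named) and other tested genes (grey; 1209 genes beyond the axes, above 100 TPM or outside ratios of 0.1 to 50, are not drawn). The most abundant of the 34 genes lie near a ratio of 1, and borr, cid and aurB lie highest.

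The coefficient of variation over 5 libraries had a median of 18.9% in controls, with a range of 2.42% to 69.0%, and a median of 11.2% in mex>PGRP-LE, with a range of 3.36% to 27.5%. mex>PGRP-LE replicate 3 was the highest of its group for 18 of 34 genes and had the highest sum (114 TPM), and replicates 1 and 2 were the lowest for 12 and 11. Among controls, replicate 5 was the lowest for 13 genes.

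All 34 genes also appear in the authors' deposited table of their own comparison, with a log2 fold change above 0 for 34 of 34. With p-values from the authors' deposited table adjusted here over its 10619 genes, 32 were higher and 0 lower, where 30.0% and 20.5% of all genes in it were. The 2 that did not pass were Bub1 and cal1, with fold changes of 0.15 and 0.13 in the authors' deposited table. For pim the authors' deposited table gives a log2 fold change of 0.83, and its p adjusted here was 0.0103. The largest values in the authors' deposited table were 4.59 for borr, 3.61 for cid and 3.43 for aurB, and the median over the 34 was 1.76 beside 0.08 for all genes.

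Genes of cell division outside the 34 were taken from 10 further lists of 128 matched genes, 127 of them tested. These lists too were chosen with earlier results of these data known. Of these, 92 rose and 8 fell, with a median log2 change of 0.42, beside 36.2% and 20.3% of all tested genes. Median-of-ratios rescaling gave 84 and 11, beside 28.9% and 27.7%. Counted among those that rose are cmet (kinetochore list), sub (spindle motors) and sti (cytokinesis), with control means of 0.0964, 0.0671 and 0.0812 TPM. These means are under the 0.1 TPM filter, so the mex>PGRP-LE libraries carried these genes past it. Of 14 other kinetochore and checkpoint genes 13 rose, led by Mis12 (1.30), Kmn1 (1.05) and Nnf1a (1.02 on the log2 scale), all of the outer kinetochore. The exception was cana, a CENP-E-type kinesin, which fell from 18.3 ± 1.18 to 9.57 ± 0.569 TPM, while its relative cmet went from 0.0964 ± 0.0256 to 0.495 ± 0.0555 TPM (SD, n = 5; both named after their values were seen). Among 19 tested genes of spindle motors and microtubules 17 rose and 0 fell; median-of-ratios values gave 15 and 2. The augmin genes wac (1.44), msd5 (1.32) and msd1 (0.98), which seed microtubules within the spindle, led them.

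Of 16 centrosome and centriole genes, 12 rose and 0 fell, led by cnn (0.88), asl (0.65) and spd-2 (0.63), which build the centrosome. Of 12 cytokinesis genes, 9 rose and 3 fell, with 7 and 3 after median-of-ratios and 7 and 1 after spike-in rescaling. The myosin light chain sqh (0.68), the septin pnut (0.64) and the profilin chic (0.58) rose, at levels far above the members, and fwd, dia and nuf fell by 0.52, 0.22 and 0.19. These genes also serve the cytoskeleton of cells that do not divide.

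For the next lists the counts that rose are to be read beside the 36.2% of all tested genes that rose, and they say little of the lists where they lie near it. Of 12 subunits and partners of the anaphase-promoting complex, 6 rose and 1 fell with a median of 0.14, and 3 rose when replicate 2 of both groups was left out or under spike-in rescaling. shtd rose by 0.43 and vih, the ubiquitin-conjugating enzyme of the complex, by 0.31, whereas APC7 fell by 0.39. Of 9 cohesin genes, 4 rose and 1 fell, or 2 and 1 under spike-in rescaling. The loader Nipped-B (0.62) and the acetyltransferase san (0.53) rose, and vtd, the cleavable cohesin subunit, fell by 0.29. Of 4 further condensin subunits, 2 rose: Cap-D3, a subunit of condensin II, went from 1.61 ± 0.164 to 6.29 ± 1.35 TPM (log2 change 1.46) and Cap-D2 rose by 0.26.

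Of 11 regulators of mitotic entry, 5 rose and 1 fell. Cks30A, a small partner of Cdk1, and the checkpoint kinase Mps1 rose by 0.87 and 0.61, and tws, a regulatory subunit of the PP2A phosphatase, fell by 0.45. Among 15 regulators of G1, S phase and the endocycle, 9 rose and 1 fell. Cdk2, the S-phase kinase, rose by 1.00, its cyclin CycE by 0.67 and mip120, a subunit of the Myb-MuvB complex that controls cell cycle genes, by 0.98. E2f1, the transcription factor of S-phase genes, fell by 0.19, and under spike-in rescaling 0 genes of this list fell. All 15 DNA replication genes rose, led by PCNA (2.67), RnrL (1.74) and RnrS (1.35).

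**Figure D5:**
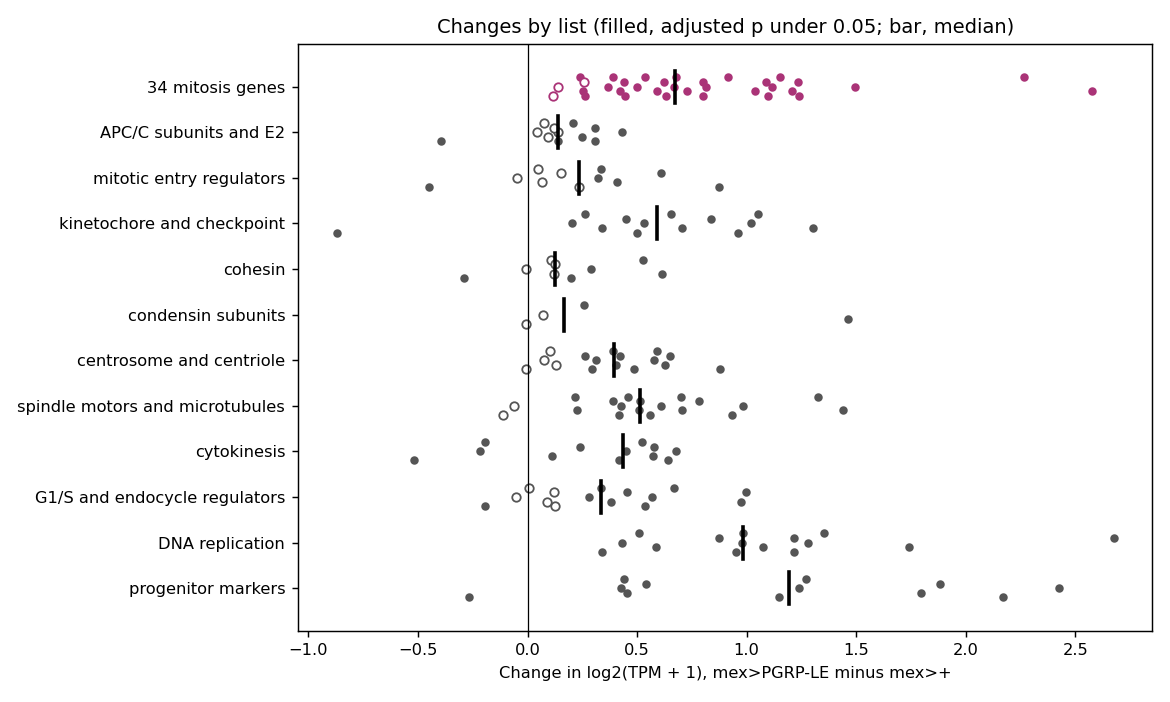
Change in log2(TPM + 1), mex>PGRP-LE minus mex>+, of the 34 genes (purple) and of each tested gene of 10 further lists and the progenitor markers (grey); filled points passed an adjusted p of 0.05, open points did not, and bars are medians. Medians run from 0.12 for cohesin and 0.14 for the anaphase-promoting complex to 0.98 for DNA replication and 1.19 for the progenitor markers.

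Most markers of progenitors, the stem cells and their enteroblast daughters, were higher alongside. Of 12 tested, 11 rose and 1 (neur) fell, and their summed level was 52.1 to 69.8 TPM in controls and 136 to 161 TPM in mex>PGRP-LE. A further listed marker, Dl, was not matched by name and has no value here. The mean of esg, a transcription factor of progenitors, had a ratio of 2.58, and 19 of the 34 genes had a larger ratio. However, esg is only 1 of the 12 markers, whose ratios ran from 0.821 for neur to 7.63 for Sox21a. The median log2 change of the markers, 1.19, was above that of the 34 genes, 0.67. In whole midguts, more cells of a type and more RNA per cell cannot be told apart, and the part of progenitor number in these changes was not tested. Of 9 enterocyte markers 7 rose and 2 fell (median log2 change 0.81), with sums of 22784 to 26147 and 22157 to 24370 TPM. Most of each sum was alphaTry, which fell from 20493 ± 1354 to 16099 ± 701 TPM (SD, n = 5), so the sums hide the rise of the 7. Of 14 enteroendocrine markers 3 rose and 3 fell (815 to 916 and 815 to 900 TPM), and of 10 visceral muscle markers 0 rose and 3 fell (2516 to 3174 and 2586 to 3214 TPM).

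Dividing germ cells of the testis use much of the same machinery. Of 19 testis and male germline markers, 2 passed the filter on low values, and Mst84Db, Mst87F, Mst98Ca and ProtA were at 0 in all 10 libraries. The list summed to 5.30 to 7.62 TPM without and 5.02 to 7.12 TPM with the transgene, almost all of it mia, at 5.87 ± 0.898 and 5.01 ± 0.695 TPM. aub, a Piwi protein best known from the germline, rose from 0.173 ± 0.0788 to 0.538 ± 0.169 TPM. Among markers of haemocytes, 2 of 6 tested rose and 2 fell. NimC1 was among those that rose. It averaged 0.0958 TPM in controls, so the mex>PGRP-LE libraries carried it past the filter. For fat body 0 of 4 rose and 1 fell, for Malpighian tubules 0 of 4 rose and 2 fell, and for trachea 0 of 5 rose and 2 fell. Malpighian tubule markers summed to 58.4 to 150 TPM in controls and 27.3 to 65.1 TPM in mex>PGRP-LE (median log2 change -1.13). Haemocyte sums were 102 to 119 and 75.9 to 80.5 TPM. Fat body sums were 78.8 to 93.0 and 51.1 to 78.9 TPM, and trachea sums 31.8 to 37.8 and 28.6 to 35.2 TPM. How much of such tissue each library held was not tested.

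Coordinates are those of BDGP6.54. The 34 genes lie on 2L (10), 2R (8), 3L (7), 3R (7) and X (2). Of the 34, 12 overlap a gene on the opposite strand, and since no source used here gives the strand setting of kallisto, reads from the shared bases could not be told apart. Besides those of cal1 and Nuf2, partners that passed the test were CG12213, kri and Nubp1, which rose beside aurA, mad2 and glu, and sif, which fell beside Sse. The overlap with sif covered 2548 bases, all of Sse, and sif averaged 0.572 TPM in controls and 0.412 TPM in mex>PGRP-LE. Some partners were far more abundant than the member. Sem1, beside Nuf2, averaged 154 and 269 TPM, and CG12213, beside aurA, 14.6 and 20.6 TPM. For 16 of the 34 genes the table holds more than 1 transcript, and the split between transcripts at these levels varied from library to library. The stg-RB transcript was listed at 0 in all 5 controls and between 0.0886 and 0.315 TPM in mex>PGRP-LE.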

How the data were processed

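The authors deposited TPM per transcript for 31181 rows, 92 of them ERCC spike-ins; all libraries sum to the same total. Build BDGP6 and the tools kallisto, edgeR, FastQC and Trim Galore are named, without versions or settings, per the submitters' processing notes. A second table holds log2 fold changes and p-values deposited by the authors, with RUVSeq in its title; whether these p-values are adjusted is not stated.

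Of 31089 transcripts, 31048 were found in the BDGP6.54 gene models of Ensembl (release 115), and their TPM were added up by gene. Genes with a mean of at least 0.1 TPM over the 10 libraries were compared as log2(TPM + 1) in limma 3.58.1 (R 4.3.3; eBayes with trend and robust), two-sided, adjusted over 10529 genes. The test was checked on simulated normal log2 values with the mean and spread of each gene. They held no counting noise and no effect shared between libraries, so the check does not bear on the precision of genes under 1 TPM. Members, lists and tests were chosen with earlier results of these data known.

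Values per library are given for the 2 largest changes in each function group and for each gene that did not pass; from each further list, at most 3 genes with the largest changes past the threshold are named. Beyond that rule cana, cmet, sub, sti, fwd, dia, nuf and E2f1, and single marker genes of other cell types, were named after their values were seen. Alternatives covered the pseudocount (0.1, 5), the filter, 3 rescalings, the variance model, a replicate block and left-out libraries. No sequence is printed.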

Additional observations from a re-analysis of the deposited data

Results flagged for a closer look

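In 8 of the 68 sets of 5 values (34 genes in each genotype), 1 library stood far from the other 4 by Dixon's ratio. Chance flags about 1 in 20 such sets. mex>PGRP-LE replicate 3 was high for CycB3 (0.631 TPM against at most 0.537 in the others), aurA (1.32 against 0.695 to 0.857) and barr (3.90 against 3.28 to 3.36), and low for Bub3 (12.6 against 13.5 to 13.8). Cdk1 was high in control replicate 1 (1.28 TPM against 0.842 to 0.947) and low in mex>PGRP-LE replicate 2 (2.33 against 3.30 to 3.62). fzy was high in mex>PGRP-LE replicate 4 (1.87 TPM against 1.24 to 1.32), and polo was low in control replicate 5 (0.235 TPM against 0.388 to 0.430). None of these values brought the 2 genotypes of its gene into overlap, and the call of each of these genes held when its library was left out.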

How the results depend on the processing

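The count of 31 genes higher and 0 lower was 29 to 33 and 0 under the pseudocounts, the rescalings, the variance models and no filter, and 31 to 32 and 0 with any single library left out. It was 23 of 25 with at least 1 TPM in 5 libraries and 20 of 22 with a mean of at least 1 TPM, since fewer genes were tested. The count of 8 further cell cycle genes that fell was 5 under spike-in rescaling; the cause was not tested. For single genes under an alternative, 749 values kept their direction and side of the threshold, 8 gained and 4 lost the call, and 0 reversed; those 12 concern Bub1, pim, barr and pbl. The highest count, 33, included Bub1 and pim with every library kept, and cal1 passed under no alternative (lowest limma adjusted p = 0.0705). A replicate block gave 30 higher and 0 lower. The numbers were not taken as pairs: deviations of same-numbered libraries correlated from -0.20 to 0.53, over 0.1 in 1 of 5 pairs (replicate 2), and 2 of 10 libraries correlated best with their own number. Because TPM keep no depth, the precision of genes under 1 TPM is known only from the spread of 5 libraries.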
